A study of Mus musculus with 12 samples.

Results

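The 10 genes described here are markers of T cells and natural killer (NK) cells: Cd3e, Tcf7, Gata3, Eomes, Klrd1, Ncr1, Prf1, Gzma, Gzmb and Nkg7. They were taken by gene symbol from a table of read counts for 31060 genes in lineage-negative (Lin-negative) bone marrow, the marrow fraction depleted of cells that carry surface markers of mature blood lineages. Every one of the 10 was found in the table and passed the filter on low counts. The mice were C57BL/6 and of 4 genotypes. Mice labelled Tet2+/-;Ins2Akita/+, called double mutant here, should by that label carry 1 disrupted copy of Tet2, the gene of a dioxygenase that acts on methylated cytosine in DNA, together with 1 Akita allele of the insulin gene Ins2, which causes high blood glucose. Tet2+/- mice carry the Tet2 change alone, Ins2Akita/+ mice the Akita allele alone, and wild type (WT) mice neither. The analysed libraries were 3 double mutant, 3 Tet2+/-, 2 Ins2Akita/+ and 3 WT. The labels give no age, sex, construct of the Tet2 allele, glucose level or list of depleting antibodies, and do not tell separate animals from repeat libraries, so that p-values measure the spread between these libraries.

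T cells recognise antigen through the T cell receptor, whose signal is passed into the cell by the CD3 chains, and their development from lymphoid progenitors is driven by transcription factors such as TCF1 and GATA3. NK cells are innate lymphocytes that carry no rearranged receptor, sense targets through receptors such as NKp46 and CD94, and mature in the bone marrow under the transcription factors EOMES and T-bet. Both cell types kill by releasing granules that hold perforin and granzymes. Several of the 10 genes are also used by cells short of maturity, for example Tcf7 and Gata3 in early T cell and innate lymphoid progenitors.

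Total counts per library lay between 14814409 and 22600405, so that a count of 0 would have allowed a level of up to 0.142 to 0.19 CPM (counts per 1000000 reads, scaled by TMM factors), the level of 3 counts. The lowest count of any member in any library was 23. The 3 libraries numbered 3 stood apart: mitochondrial genes took 9.76% of counts in double mutant library 3, 4.46% in Tet2+/- library 3 and 3.43% in WT library 3, against 1.36% to 1.94% in the other 8. Tet2 itself had 66.5, 108 and 34.2 CPM in the libraries labelled double mutant, 19, 18.5 and 19.3 CPM in Tet2+/-, 131 and 107 CPM in Ins2Akita/+ and 91.2, 128 and 45.1 CPM in WT. The libraries labelled double mutant share the Tet2+/- label, but all 3 were above the Tet2+/- libraries and overlapped WT, so groups are named here as labelled. Every direction given below for the double mutant is one of libraries so labelled.

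All 10 members were detected in each of the 11 libraries, Cd3e among them with 60 to 227 counts, in a fraction named for the removal of mature lineages. Per kilobase of merged exons, Nkg7 had the highest level, 135 ± 57.4 CPM per kilobase (SD over the 11 libraries of all genotypes), followed by Gzmb at 32 ± 22.6 and Tcf7 at 17.9 ± 10.6. Gzma came next at 12.8 ± 13.4 CPM per kilobase, then Klrd1 at 6.1 ± 3.27 and Eomes at 4.32 ± 2.81. At the low end of this per-length order stood Gata3 at 2.25 ± 1.04, Ncr1 at 1.99 ± 1.38, Cd3e at 1.9 ± 0.811 and Prf1 at 1.75 ± 0.817 CPM per kilobase. Nkg7 was above Gzmb in all 11 libraries, and Gzma above Klrd1 in 10. The last 4 did not differ beyond their spread: Gata3 was above Ncr1 in 6 of 11 libraries, Ncr1 above Cd3e in 5 and Cd3e above Prf1 in 5.

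**Figure D1:**
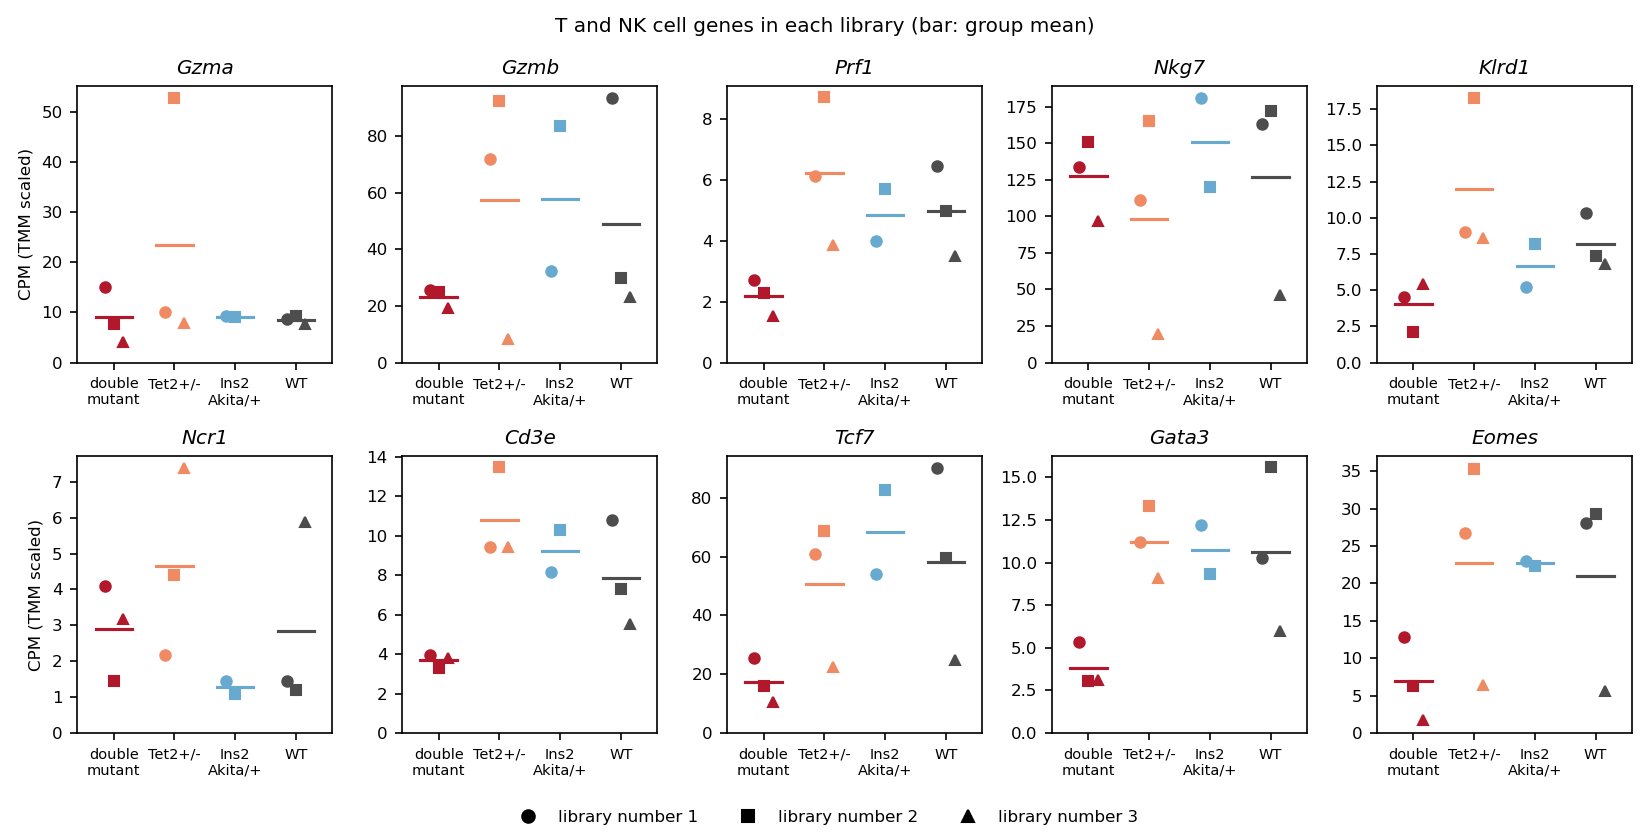
Level of each of the 10 genes (y axis, CPM scaled by TMM factors, from 0) in every library of the double mutant, Tet2+/-, Ins2Akita/+ and WT groups (x axis). Points are libraries, their shape gives the library number, and bars are group means. For Cd3e the 3 double mutant libraries sit at 3.28 to 3.96 CPM, below all 8 others, whereas for Nkg7 the double mutant libraries at 96.7 to 151 CPM lie inside the WT range.

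The genes of the T cell lineage had lower mean levels in the double mutant than in each of the other 3 genotypes, with differences that did not pass the adjusted threshold in the edgeR fit of all libraries without a replicate block. Values from that fit are given first, and the other fits further on. Cd3e, the epsilon chain of the CD3 complex, had 3.96, 3.28 and 3.8 CPM in the double mutant, 9.43, 13.5 and 9.42 CPM in Tet2+/-, 8.16 and 10.3 CPM in Ins2Akita/+ and 10.8, 7.32 and 5.5 CPM in WT. Every double mutant library was below every library of the other genotypes, and the double mutant mean was 3.68 ± 0.355 CPM (SD, n = 3). The log2 difference from WT was -1.1 ± 0.31 (SE, edgeR quasi-likelihood test), with an adjusted p of 0.267 over the 15630 genes tested. Against Tet2+/- it was -1.55 ± 0.31, with an edgeR adjusted p of 0.0941, the smallest of any member in this fit. Since these are bulk libraries, fewer cells of a type and less RNA per cell cannot be told apart, for this gene or for any other below.

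Tcf7 encodes TCF1, a transcription factor needed early in the T cell lineage and in innate lymphoid progenitors. It had 25.6, 16.1 and 10.7 CPM in the double mutant, 61, 68.6 and 22.6 CPM in Tet2+/-, 54.1 and 82.6 CPM in Ins2Akita/+ and 90.1, 59.4 and 24.9 CPM in WT. The double mutant overlapped Tet2+/- and WT only through their libraries numbered 3, and did not overlap Ins2Akita/+. The log2 difference from WT, -1.73 ± 0.55 (edgeR adjusted p 0.324), was the largest of the 10 members in that comparison, as was that from Ins2Akita/+, -1.97 ± 0.59 (adjusted p 0.484).

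Gata3, the transcription factor of T cell commitment, of type 2 helper T cells and of innate lymphoid cells, had 5.36, 3.03 and 3.11 CPM in the double mutant, 11.2, 13.3 and 9.08 CPM in Tet2+/-, 12.2 and 9.32 CPM in Ins2Akita/+ and 10.3, 15.6 and 5.99 CPM in WT. As for Cd3e, the double mutant libraries were below the 8 others. The log2 difference was -1.47 ± 0.39 from WT, -1.54 ± 0.39 from Tet2+/- and -1.49 ± 0.43 from Ins2Akita/+, with edgeR adjusted p-values of 0.236, 0.175 and 0.43. Short antisense or overlapping transcripts cover 3.3% of the exon bases of Cd3e and at most 3.9% of those of Gata3 for any 1 of them, and whether strand was used in counting is not given in the sources used here.

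The NK cell genes did not share 1 pattern. Eomes, a T-box transcription factor of NK cell maturation and of memory CD8 T cells, had 12.9, 6.27 and 1.77 CPM in the double mutant, 26.7, 35.3 and 6.38 CPM in Tet2+/-, 23 and 22.4 CPM in Ins2Akita/+ and 28.1, 29.3 and 5.63 CPM in WT. Its range over all libraries was the widest of the members, with the highest library 19.9 times the lowest. Within each group of 3, library 3 was the lowest, and the double mutant library was the lowest within each number. The log2 difference from WT was -1.59 ± 0.82 (edgeR adjusted p 0.671), with the largest standard error of the members in this comparison, and -2.38 without double mutant library 1.

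Klrd1 encodes CD94, which pairs with NKG2 chains to form NK cell receptors for a non-classical MHC molecule. It had 4.56, 2.09 and 5.45 CPM in the double mutant, 9.05, 18.3 and 8.6 CPM in Tet2+/-, 5.2 and 8.16 CPM in Ins2Akita/+ and 10.3, 7.37 and 6.84 CPM in WT. The double mutant did not overlap Tet2+/- or WT but overlapped Ins2Akita/+, whose library 1 was below double mutant library 3. The log2 difference was -1.02 ± 0.44 from WT, -1.57 ± 0.44 from Tet2+/- and -0.73 ± 0.48 from Ins2Akita/+ (edgeR adjusted p 0.537, 0.216 and 0.923).

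Ncr1 encodes NKp46, an activating receptor of NK cells and of some innate lymphoid cells. It had 4.11, 1.44 and 3.17 CPM in the double mutant, 2.18, 4.39 and 7.39 CPM in Tet2+/-, 1.45 and 1.1 CPM in Ins2Akita/+ and 1.46, 1.19 and 5.87 CPM in WT. The double mutant overlapped every other genotype, although 2 of its 3 libraries were above both of Ins2Akita/+. Its log2 difference from WT was 0.04 ± 0.68 (edgeR adjusted p 0.995), and 1.13 without WT library 3, which held the highest WT value.

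Of the 4 cytotoxic granule genes, Prf1 was the 1 whose double mutant libraries were all below those of the other genotypes. Prf1, the pore-forming protein perforin, had 2.71, 2.29 and 1.52 CPM in the double mutant, 6.11, 8.72 and 3.87 CPM in Tet2+/-, 3.99 and 5.71 CPM in Ins2Akita/+ and 6.45, 4.98 and 3.51 CPM in WT. Its highest double mutant library was below its lowest WT library, number 3. The log2 difference was -1.19 ± 0.4 from WT, -1.51 ± 0.4 from Tet2+/- and -1.16 ± 0.43 from Ins2Akita/+, with edgeR adjusted p-values of 0.359, 0.188 and 0.657.

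Gzmb, the serine protease granzyme B, had 25.8, 24.9 and 19.3 CPM in the double mutant, 72, 92.6 and 8.36 CPM in Tet2+/-, 32.3 and 83.7 CPM in Ins2Akita/+ and 93.6, 30 and 23.2 CPM in WT. The double mutant libraries were alike, while each other group held values far apart. The log2 difference from WT was -1.07 ± 0.78 (edgeR adjusted p 0.812), and -0.19 without WT library 1.

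Gzma, the tryptase-like granzyme A, had 15.1, 7.66 and 4.18 CPM in the double mutant, 10, 52.7 and 7.78 CPM in Tet2+/-, 9.25 and 8.98 CPM in Ins2Akita/+ and 8.66, 9.21 and 7.68 CPM in WT. Tet2+/- library 2 stood alone, and the 10 other libraries lay between 4.18 and 15.1 CPM. The log2 difference of the double mutant from Tet2+/-, -1.38 ± 0.7 (edgeR adjusted p 0.508), was 0.01 without that library. Nkg7, a membrane protein of cytotoxic granules and the most abundant of the 10 per length, had 134, 151 and 96.7 CPM in the double mutant, 111, 165 and 19.2 CPM in Tet2+/-, 181 and 120 CPM in Ins2Akita/+ and 163, 172 and 46 CPM in WT. Double mutant and WT overlapped throughout, with a log2 difference of 0 ± 0.68 (edgeR adjusted p 0.999). The low values of Nkg7 were those of Tet2+/- library 3 and WT library 3, and double mutant library 3 was not among them.

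Promoter sequence was looked up in RefSeq (GRCm38.p6, 250 bases before to 50 after a start site), where 9 of the 10 members had 11 entries; Klrd1 was not among them. The sequences of the 4 members that hold a searched motif are shown, so that its place before the start can be read. The RUNX motif TGTGGTT, searched on both strands, was in a promoter of Gzma, Gzmb and Ncr1, 3 of the 9 genes, and in 5.27% of all 32851 promoters in the table. The T-box motif TCACACC was in the promoter of Nkg7, and in 3.98% of all promoters. None of the 11 member entries held a TCF/LEF motif, searched as CTTTGAA (in 5.14% of all promoters), as CTTTGAT (in 3.73%) and as CTTTGTT (in 5.85%). The GATA motif AGATAA, in 11.2% of all promoters, was in none of them either. No motif overlapped a different one. Ncr1 has 2 overlapping entries, which hold the same RUNX motif, and the first is shown. The 250 bases before the start are given 5′ to 3′ on the gene's strand, from chr13:113100982-113101231 (minus strand) for Gzma, chr14:56262335-56262584 (minus) for Gzmb, chr7:4337465-4337714 (plus) for Ncr1 and chr7:43436888-43437137 (plus) for Nkg7, with the motif in capitals. In Gzma and Nkg7 it reads on the opposite strand and is printed as its reverse complement.
Gzma: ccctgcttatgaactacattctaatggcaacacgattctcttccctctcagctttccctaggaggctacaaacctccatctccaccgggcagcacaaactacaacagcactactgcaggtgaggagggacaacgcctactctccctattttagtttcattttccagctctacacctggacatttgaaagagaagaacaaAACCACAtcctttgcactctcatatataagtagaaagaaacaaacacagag
Gzmb: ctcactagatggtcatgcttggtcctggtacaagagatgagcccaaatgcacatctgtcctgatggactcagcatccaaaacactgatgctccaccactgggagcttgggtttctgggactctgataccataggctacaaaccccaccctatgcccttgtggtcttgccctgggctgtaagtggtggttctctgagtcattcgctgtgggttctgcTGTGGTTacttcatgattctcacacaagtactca
Ncr1: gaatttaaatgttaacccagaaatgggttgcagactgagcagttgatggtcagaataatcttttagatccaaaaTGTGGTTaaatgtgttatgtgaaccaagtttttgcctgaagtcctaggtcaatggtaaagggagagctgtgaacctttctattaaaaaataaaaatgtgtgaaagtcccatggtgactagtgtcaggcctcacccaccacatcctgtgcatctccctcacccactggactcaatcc
Nkg7: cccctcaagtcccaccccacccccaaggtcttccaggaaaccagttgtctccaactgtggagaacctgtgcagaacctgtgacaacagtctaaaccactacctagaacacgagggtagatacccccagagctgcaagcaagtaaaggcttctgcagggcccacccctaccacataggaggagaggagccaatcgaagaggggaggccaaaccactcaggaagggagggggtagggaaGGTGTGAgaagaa
The first base of the motif lay 51 bases before the start in Gzma, 34 in Gzmb, 176 in Ncr1 (185 from the start of its other entry) and 13 in Nkg7.

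Set against WT, the double mutant had 7 of the 10 members below 0, with a median log2 difference of -1.08 over the members and -0.05 over all 15630 genes tested. None of the 10 passed the edgeR threshold in either direction, and 0.0192% of all genes were called lower. At an unadjusted p under 0.05 edgeR gave 5 members (Prf1, Klrd1, Cd3e, Tcf7 and Gata3) and 1374 genes in all, and limma voom, with 0 members called, also gave 5. Prf1, Klrd1, Cd3e and Gata3, 4 of 10, had every double mutant library below every WT library, against 8.57% of all genes.

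Set against Tet2+/-, the other genotype with that label, the double mutant had 9 of 10 members below 0, all but Nkg7, with a median of -1.52 and -0.08 over all genes. None was called by edgeR, where 0.179% of all genes were called lower, and 5 members and 1701 of all genes had an unadjusted p under 0.05. Prf1, Klrd1, Cd3e and Gata3 had every double mutant library below every Tet2+/- library, against 6.68% of all genes. Set against Ins2Akita/+, 9 of 10 were below 0, all but Ncr1, with a median of -1.23 and 0.01 over all genes. None was called by edgeR (0.0192% of all genes called lower), 4 members and 1032 of all genes had an unadjusted p under 0.05, and Gzmb, Prf1, Cd3e, Tcf7, Gata3 and Eomes, 6 of 10, lay apart and lower, against 19.9% of all genes. No Ins2Akita/+ library numbered 3 was analysed, so this comparison sets a group with a library 3 against one without. Gzmb, Tcf7 and Eomes lay apart only here, and were lower in library 3 than the mean of libraries 1 and 2 in every other group. With the library number as a replicate block, described below, 0 members were called against Ins2Akita/+. The 3 comparisons share the double mutant libraries.

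**Figure D2:**
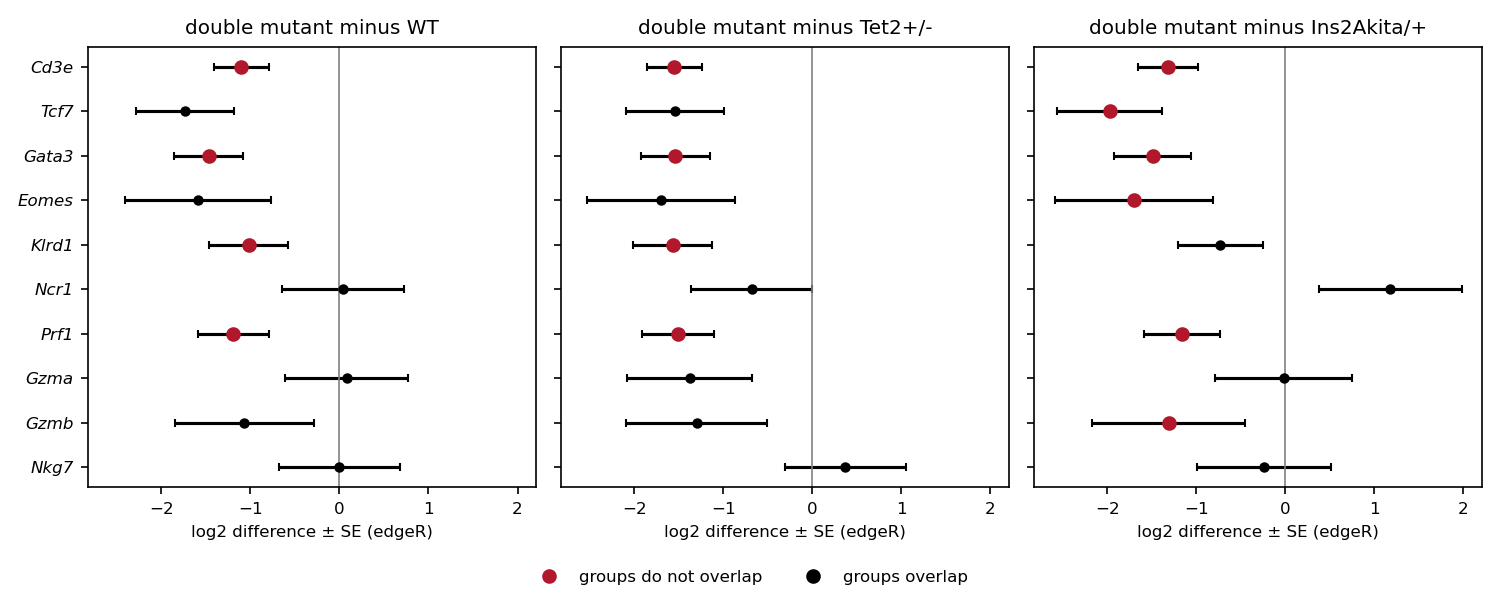
Log2 difference (x axis, edgeR, with its SE) of each of the 10 genes (y axis) between the double mutant and WT, Tet2+/- or Ins2Akita/+. Red points mark genes whose libraries do not overlap between the groups: Cd3e, Gata3 and Prf1 are red in all 3 panels, and Nkg7, Gzma and Ncr1 in none.

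The members differed in how they followed the library number. Library 3 was below the mean of libraries 1 and 2 for Eomes by nearly the same amount in each group of 3, with log2 CPM differences of -2.26 in the double mutant, -2.25 in Tet2+/- and -2.32 in WT. Nkg7 had -0.55 in the double mutant, -2.81 in Tet2+/- and -1.86 in WT, and Gzmb had -0.38, -3.27 and -1.19 in the same groups. Ncr1 went the other way, with 0.37 in the double mutant, 1.23 in Tet2+/- and 2.07 in WT. Cd3e had 0.09, -0.26 and -0.68 in these groups. These are the libraries with the highest mitochondrial shares. Their summed markers of maturing neutrophils differed too, with 2980 CPM in Tet2+/- library 3 and 2140 in WT library 3. Those were the lowest of their groups, while double mutant library 3 had 62200 CPM, between its libraries 1 and 2. The part of RNA quality or of cell composition in these values was not tested.

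**Figure D3:**
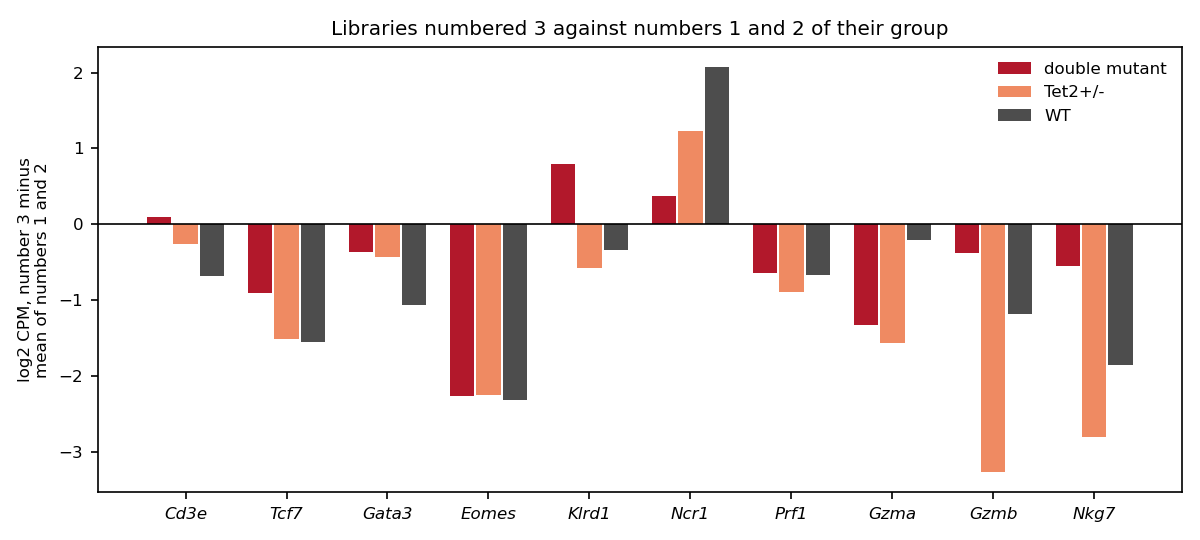
Log2 CPM of library 3 minus the mean of libraries 1 and 2 (y axis) for each of the 10 genes (x axis) in the double mutant, Tet2+/- and WT groups. Bars are single differences with no error. Those of Eomes are -2.26, -2.25 and -2.32, and those of Ncr1 lie above 0.

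Number by number, Tcf7 was lower in the double mutant than in WT by log2 differences of -1.81, -1.88 and -1.21 for numbers 1 to 3, and Eomes by -1.12, -2.21 and -1.6. Those of Prf1 were -1.22, -1.09 and -1.14. Same-numbered libraries of the double mutant, Tet2+/- and WT deviated together, although library 3 standing apart can alone put numbers 1 and 2 on the same side. The fit with the library number as a replicate block is therefore given beside the one without it. That fit also blocked the 2 Ins2Akita/+ libraries by number, whose deviations did not follow the number (correlations of -0.343 to 0.259). In the replicate block fit, Tcf7 (-1.64 ± 0.27, edgeR adjusted p 0.0325) and Eomes (-1.62 ± 0.26, adjusted p 0.0324) fell in the double mutant against WT, 2 of 10 members where 0.71% of all genes were called lower. Against Tet2+/-, 5 members fell in the replicate block fit, where 1.67% of all genes were called lower: Prf1 by 1.49, Cd3e by 1.54, Tcf7 by 1.46, Gata3 by 1.56 and Eomes by 1.76 on the log2 scale, with edgeR adjusted p-values between 0.0161 and 0.0307.

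Without the 3 libraries numbered 3, which left 2 libraries in each genotype, 4 members fell in the double mutant against WT, against 1.79% of all genes called lower by edgeR. These were Cd3e (log2 difference -1.32, adjusted p 0.048), Tcf7 (-1.84, 0.0246), Gata3 (-1.62, 0.0386) and Eomes (-1.58, 0.0341). Against Tet2+/- Prf1, Klrd1, Cd3e, Tcf7, Gata3 and Eomes fell, 6 of 10 against 3.67% of all genes, with Klrd1 at -2.04 ± 0.47 (edgeR adjusted p 0.0381). Against Ins2Akita/+ it was Cd3e (-1.35, edgeR adjusted p 0.0497) and Tcf7 (-1.71, 0.0311), 2 of 10 against 1.2% of all genes. DESeq2 on all 11 libraries called 2 members lower against WT (Cd3e and Gata3, where it called 0.904% of all genes lower), 4 against Tet2+/- (Prf1, Klrd1, Cd3e and Gata3, 1.49% of all genes) and 1 against Ins2Akita/+ (Cd3e, 0.41% of all genes). Gzma, Gzmb, Nkg7 and Ncr1 were called in none of these fits.

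On all libraries without the replicate block, 8 of 10 members were above 0 against WT in Tet2+/-, as were 8628 of all 15630 genes. In Ins2Akita/+ it was 7 of 10, and 7528 of all genes, but this direction did not hold in every fit. Without the libraries numbered 3, 8 of 10 were below 0 in Ins2Akita/+ (median -0.14), and with the replicate block 9 of 10 (median -0.22). In Tet2+/- 3 of 10 were below 0 in both of these fits. No Ins2Akita/+ library numbered 3 was analysed. Between Tet2+/- and WT the median log2 difference of the members was 0.28, none of the 10 was called by edgeR (0.0256% of all genes called in either direction), none had an unadjusted p under 0.05, and none lay apart, against 4.24% of all genes. DESeq2 called none either, with 1 member at an unadjusted p under 0.05. The largest of these differences, 1.46 ± 0.7 for Gzma, was 0.06 without Tet2+/- library 2. Between Ins2Akita/+ and WT the median was 0.1, no member was called (0% of all genes by edgeR, where 67 had an unadjusted p under 0.05), none of the members had such a p by edgeR, DESeq2 or limma voom, and none lay apart, against 11.6% of all genes.

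The interaction, the difference between double mutant and Tet2+/- minus that between Ins2Akita/+ and WT, tests whether the Akita allele went with a different change beside the Tet2 label. Its median over the members was -1.52 on the log2 scale, and no member was called (0% of all genes by edgeR, with 537 at an unadjusted p under 0.05). Cd3e had the smallest p, with an interaction of -1.77 ± 0.46, unadjusted p 0.00315 and edgeR adjusted p 0.812. Prf1 (-1.48 ± 0.58, unadjusted p 0.03) and Gata3 (-1.56 ± 0.57, unadjusted p 0.0215) were the others under 0.05 before adjustment, and both had an edgeR adjusted p of 1.

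Wider lists of the same cell types were set beside the members. All 18 genes of the T cell receptor complex and its signalling were below 0 in the double mutant against WT, against Tet2+/- and against Ins2Akita/+, with medians of -1.38, -1.56 and -1.48 and none called by edgeR. Lck, the first kinase of the receptor's signal and among the most abundant of the list in CPM, averaged 20 ± 3.03 CPM in the double mutant against 40.3 ± 14.7 CPM in WT (SD, n = 3 each), a log2 difference of -1.01 ± 0.33 (edgeR adjusted p 0.353). Thy1 and Lat, a surface antigen and an adaptor, were at -0.34 and -0.29. Without the libraries numbered 3, 9 of the 18 fell against WT (1.79% of all genes) and 15 against Tet2+/- (3.67%) by edgeR, Cd3d at -2.06 and -2.38, Cd3g at -1.68 and -2.39 and the constant gene Trac at -1.85 and -2.15 among them. With the replicate block on all libraries 2 fell against WT (0.71% of all genes) and 7 against Tet2+/- (1.67%). DESeq2 on all libraries called 0 of the 18 against WT and 8 lower against Tet2+/- (1.49% of all genes). Against Ins2Akita/+ 3 fell without the libraries numbered 3 (1.2% of all genes), and 0 with the block or DESeq2.

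Of 12 T cell regulators and early T cell genes, 10 were below 0 against WT (median -0.73) and 9 against Tet2+/- (median -0.95). Ikzf3, which encodes the lymphoid zinc finger factor Aiolos, averaged 10.3 ± 1.95 CPM in the double mutant, 26.2 ± 2.14 CPM in Tet2+/- and 26.9 ± 1.6 CPM in WT (n = 3 each), and was the 1 gene of this list called without the replicate block on all libraries, lower in the double mutant than in Tet2+/- (-1.34 ± 0.21, edgeR adjusted p 0.046). With the block, 3 of the 12 were called lower against WT (0.71% of all genes) and 4 against Tet2+/- (1.67%). Without the libraries numbered 3 these counts were 6 (1.79% of all genes) and 8 (3.67%). Against WT the log2 difference of Ikzf3 was -1.38 ± 0.21 with an edgeR adjusted p of 0.068. Notch1, the receptor that starts the T cell programme, was at 0.48 ± 0.42 against WT, and Ets1, Satb1 and Tcf12 lay between -0.45 and -0.65.

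Against WT, the medians of the NK cell and cytotoxic lists lay closer to 0 than those of the T cell lists, a difference that was not tested. Against Tet2+/- the median of the cytotoxic list was -0.94, beside -0.95 for the T cell regulators and early T cell genes. Of 16 NK receptors and adaptors 12 were below 0 against WT (median -0.57) and 8 against Ins2Akita/+ (median -0.12). Il2rb, the interleukin receptor chain on which NK cells depend, averaged 62.2 ± 31.7 CPM in the double mutant and 163 ± 100 CPM in WT (-1.39 ± 0.67, edgeR adjusted p 0.622), while Fcer1g and Tyrobp, adaptors that myeloid cells also use, were at 0.97 and 0.55. Of 10 NK and innate lymphoid regulators 8 were below 0 against WT (median -0.65), Rora at -1.17 and Zeb2 at -0.41 against Nfil3 at 0.51 and Id2 at 0.34. Of 15 cytotoxic effectors 8 were below 0 against WT (median -0.33). These 8, Gzmc, Fasl, Serpinb9, Ctsw, Ccl5, Gzmm, Xcl1 and Ifng, lay between -1.16 and -0.33. The 7 above 0 included the 4 most abundant, Srgn, Lamp1, Ccl3 and Unc13d, which lay between 0.12 and 0.41. In bulk libraries the counts of this list cannot be assigned to cytotoxic lymphocytes alone, and which cells gave them was not tested. Its median is therefore not one of such lymphocytes. None of these 3 lists had a gene called by edgeR on all libraries without the replicate block in any of the 3 comparisons. With the block, 2 of the NK and innate lymphoid regulators were called lower against WT (Tbx21 and Rora) and 3 against Tet2+/- (Tbx21, Rora and Il1rl1), as was 1 cytotoxic effector against Tet2+/- (Fasl). The block fit called 0.71% of all genes lower against WT and 1.67% against Tet2+/-. Without the libraries numbered 3, edgeR called lower against WT 1 NK receptor or adaptor, 3 NK and innate lymphoid regulators and 0 cytotoxic effectors (1.79% of all genes). Against Tet2+/- it called 3, 4 and 6 lower in the same lists (3.67% of all genes). In each of these 2 comparisons 1 cytotoxic effector was called higher, where 253 and 579 genes were called higher in all.

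**Figure D4:**
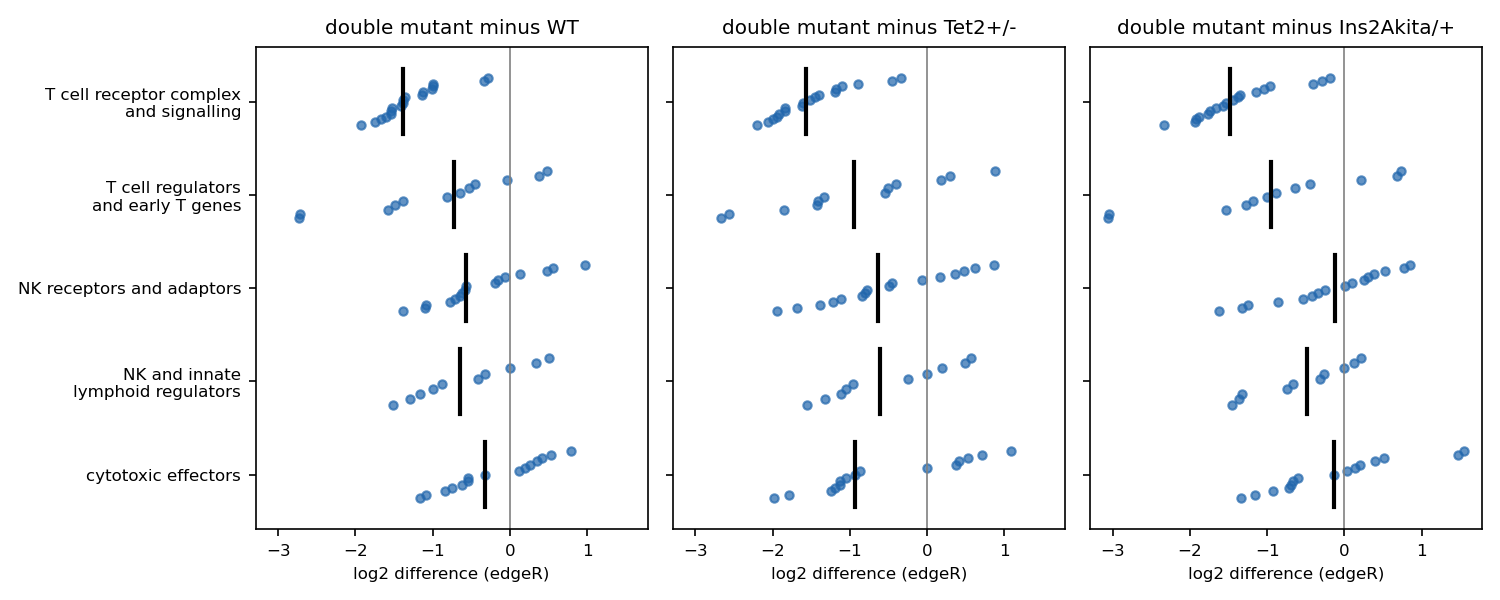
Log2 difference (x axis, edgeR) of each tested gene of 5 lists (y axis) between the double mutant and WT, Tet2+/- or Ins2Akita/+. Points are genes in rank order and black bars are list medians. All 18 genes of the T cell receptor list lie below 0 in each panel, while the cytotoxic effector list lies on both sides of 0.

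The summed markers of maturing neutrophils, the B lineage and dendritic cells set the double mutant apart from every other genotype. Those of basophils and mast cells did not, and nor did the sum of the 10 members. Summed over 12 genes of maturing neutrophils, the level was 46200 to 71300 CPM in the double mutant, 2980 to 28400 CPM in Tet2+/-, 15800 to 30700 CPM in Ins2Akita/+ and 2140 to 23500 CPM in WT, so the double mutant lay above all others, with none of the 12 genes at 0 in any library. The lowest sums in WT and Tet2+/-, 2140 and 2980 CPM, were those of their libraries numbered 3, while double mutant library 3 had 62200 CPM. All 12 were above 0 against WT, with a median of 2.23. That median was 1.49 without the libraries numbered 3 and 2.77 with the replicate block. Summed B lineage markers were at 62.9 to 135 CPM in the double mutant, 213 to 337 in Tet2+/-, 174 to 190 in Ins2Akita/+ and 182 to 213 in WT, and 11 of 12 were below 0 against WT (median -2.67), Rag2 being at 0 counts in double mutant library 2. Against Tet2+/- edgeR called 6 of them lower, against 0.179% of all genes, the B cell transcription factor genes Ebf1 and Pax5 among them. Of 11 tested markers of plasmacytoid and other dendritic cells all were below 0 against WT (median -1.58), Cd209d being at 0 counts in double mutant library 3, and Spib, a transcription factor of plasmacytoid dendritic cells, was called lower against Tet2+/- (-3.06 ± 0.36, edgeR adjusted p 0.0259). Without the libraries numbered 3, edgeR called 7 of the B lineage markers and 8 of the dendritic cell markers lower against WT. So were 5 of 9 basophil and mast cell markers, against 1.79% of all genes. On all libraries 5 of these 9 were below 0 against WT (median -0.05) and 3 against Tet2+/- (median 0.44), with 0 called by edgeR with or without the replicate block. Their summed level was 924 to 5880 CPM in the double mutant, with the highest in library 3, 878 to 2100 in Tet2+/-, 2130 to 2270 in Ins2Akita/+ and 2060 to 3210 in WT. All 11 tested erythroid markers were below 0 against WT (median -0.59) and against Tet2+/- (median -1.26). Of 10 stem and progenitor markers 3 were below 0 against WT (median 0.31). In both lists edgeR called 0 on all libraries in these comparisons. The summed level of the 10 T and NK cell genes was 150 to 234 CPM in the double mutant, 103 to 473 in Tet2+/-, 331 to 352 in Ins2Akita/+ and 135 to 422 in WT. The double mutant sum of each wider T cell, NK cell and cytotoxic list overlapped that of WT as well. For the T cell receptor list it was 165 to 236 CPM in the double mutant, 242 to 731 in Tet2+/-, 465 to 609 in Ins2Akita/+ and 206 to 698 in WT. The part of cell composition in the members' values was not tested.

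Among themselves the members formed no single profile. Likeness was taken as the root mean square difference over the 11 libraries between centred log2 CPM profiles, where 0 is an identical profile. The closest pair was Prf1 and Cd3e at 0.27, followed by Klrd1 and Cd3e at 0.37 and Prf1 and Gata3 at 0.38. Prf1 was the nearest to the mean of the other members, at 0.23, and Ncr1 the farthest at 1.33, with Nkg7 at 0.99 and Eomes at 0.84. The farthest pair was Ncr1 and Eomes at 1.87. In the mean profile of the members, double mutant libraries 1 to 3 stood at -0.2, -0.84 and -1.04, Tet2+/- libraries at 0.44, 1.16 and -0.44, Ins2Akita/+ libraries at 0.15 and 0.35 and WT libraries at 0.56, 0.25 and -0.38 on the centred log2 scale. Double mutant library 1 was therefore above the libraries numbered 3 of Tet2+/- and WT.

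Outside the 10, the genes most like this mean profile were Serpinb9 at 0.16, an inhibitor of granzyme B, then Iqcb1, the chemokine gene Ccl5, Lck, Adgrg5 and Zap70 at 0.19 each. Fyn, a kinase of the same family as Lck, followed at 0.2, Slc41a2 at 0.21 and Abca1 and Tcf4 at 0.22. The median over all genes was 0.76. Nearest to single members were Tubb2a for Cd3e (0.2), Cd247, the CD3 zeta chain, for Tcf7 (0.2) and Bcl11b, a factor of T cell commitment, for Gata3 (0.26). Sh2d2a was nearest to Eomes (0.23), Cd3g to Klrd1 (0.25), Adgrg5 to Prf1 (0.17), Smim3 to Nkg7 (0.21), Ier5l to Gzmb (0.39), Spa17 to Ncr1 (0.42) and Klra9 to Gzma (0.45). These profiles share libraries and depth, and likeness is a description with no test.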

How the data were processed

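The authors deposited 1 table of raw read counts per gene, in whole numbers. The submitters' processing notes name TopHat2 2.1.1, Trimmomatic 0.32 and bcl2fastq and the build GRCm38. How reads were counted, with which annotation and strand setting, was not given in the sources used here. Names came from GENCODE M21 by identifier without version (30875 of 31060 matched). Of 12 labelled samples 11 had a column matching their label. Double mutant sample 4 was not analysed here, and 1 column, named like an Ins2Akita/+ library numbered 3, matches no label and was not used. Whether that column is double mutant sample 4 is unknown.

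Tests on these counts used edgeR 4.0.16 under R 4.3.3 (filterByExpr, TMM factors, 1 fit of the 4 groups, glmQLFit with robust=TRUE, glmQLFTest) in 6 comparisons, with Benjamini-Hochberg adjustment over all 15630 genes tested and a threshold of 0.05. The SE is the log2 difference over the square root of F. The test was checked on counts simulated with known changes. These had no effect of library number, so the check does not cover the way the libraries numbered 3 stand apart. Total counts were 14814409 to 22600405 per library, and floors cover counting error only. No 2 libraries of a group agreed within counting noise. Alternatives were other factors (RLE, upper quartile), DESeq2 1.42.0, limma 3.58.1 voom, other low count filters, the replicate number as a block, only the groups compared, robust=FALSE, each library left out and all libraries numbered 3 left out.

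The labels number the libraries without saying what a number marks. The correlation of same-numbered libraries, as deviations from their group means, was 0.31 to 0.792 among the double mutant, Tet2+/- and WT, and this was taken as pairing by number in these groups. Library 3 stands apart in each, which alone can put numbers 1 and 2 on the same side. The 2 Ins2Akita/+ libraries did not deviate with their numbers in this way (-0.343 to 0.259), but the replicate block fit blocked them by number as well.

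The members and lists were chosen with earlier results of these data known. Named were all members, per wider list up to 4 genes of highest mean CPM and any called gene, and the 10 genes most like the members' mean and the nearest of 3 to each member, without Gm and Rik symbols. Cd3d, Cd3g, Trac and the cytotoxic effectors below 0 against WT were named after their values were seen. Some genes that the rule names are not reported here.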

Additional observations from a re-analysis of the deposited data

How the results depend on the processing

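None of the 10 members was called by edgeR in any of the 6 comparisons, and this held with RLE or upper quartile factors, limma voom, other low count filters, robust=FALSE and without any 1 library (0 to 0 members called in each comparison). It also held with only the groups compared, which was run for the 5 comparisons of 2 groups. Prf1 and Ncr1 were not tested at a mean of at least 5 CPM. The count of members called, all lower in the double mutant, was 2 against WT, 4 against Tet2+/- and 1 against Ins2Akita/+ with DESeq2. It was 2 against WT and 5 against Tet2+/- with the replicate block, and 4 against WT, 6 against Tet2+/- and 2 against Ins2Akita/+ without all libraries numbered 3. The replicate block changed no other call of a member. No called member changed direction, and Cd3e, Tcf7, Gata3, Eomes, Prf1, Klrd1 and Gzmb stayed below 0 against WT, Tet2+/- and Ins2Akita/+ in every alternative that tested them. The cause of the added calls was not tested.

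Counts over all genes moved more. Against WT, edgeR called 7 genes in the double mutant, DESeq2 408, limma voom 13, the replicate block 255, the fit with no low count filter 52 and that without all libraries numbered 3 532, with 1 to 48 without any 1 library. Against Tet2+/- the main count was 41, with 538 by DESeq2, 703 with the replicate block, 86 with no low count filter, 8 at a mean of at least 5 CPM, 0 with only the groups compared, 1152 without all libraries numbered 3 and 0 to 62 without any 1 library. Against Ins2Akita/+ it was 6, with 189 by DESeq2, 18 with the replicate block, 20 with no low count filter, 3 with upper quartile factors, limma voom or a mean of at least 5 CPM, 1 with only the groups compared, 427 without all libraries numbered 3 and 0 to 11 without any 1 library. Between Tet2+/- and WT it was 4, with 45, 8 and 22 by DESeq2, the replicate block and without all libraries numbered 3, 2 with only the groups compared and 1 to 7 without any 1 library. The interaction had 0, with 57 by DESeq2, 3 with the replicate block or no low count filter and 12 without all libraries numbered 3. At 2 or 3 libraries a group, a lone library can decide the values of Gzma, Gzmb, Ncr1 and Nkg7. That of Eomes was -2.38 against WT and -2.49 against Tet2+/- and Ins2Akita/+ without double mutant library 1.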
